A study of Mus musculus with 12 samples.

Results

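The proteasome genes of in vitro polarised mouse CD4 T cells were examined across 4 groups of RNA-seq libraries. Members were the protein-coding genes whose symbol begins with Psma, Psmb, Psmc, Psmd or Psme followed by a number. They came to 45 of the 39179 gene IDs in the count tables, after 3 pseudogene symbols were set aside. Within them, the 5 immune subunits Psmb8, Psmb9, Psmb10, Psme1 and Psme2 were contrasted with the 3 constitutive catalytic subunits Psmb5, Psmb6 and Psmb7. The remaining 37 were 11 structural subunits of the 20S core, 6 ATPases and 11 non-ATPase subunits of the 19S particle, the 3 assembly chaperones Psmd5, Psmd9 and Psmd10, and 6 genes of another role. Of the 45, 43 passed the filter on low counts and were tested.

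All samples were CD4 T cells of OT-II mice, whose transgenic receptor recognises an ovalbumin peptide, taken from lymph nodes and spleen. The KO cells came from OT-II x NKG2D-/- mice, which lack the activating receptor NKG2D, and were sorted as Thy1.1+. The WT cells came from OT-II mice on C57BL/6 and were sorted as Thy1.2+ and, in addition, as NKG2D+, so the genotypes also differ in the congenic Thy1 allele and in a gate. Th17 cultures received IL-1b, IL-6 and IL-23 with antibodies to IFNg and IL-4, and IL-12 after the second stimulation. Th1 cultures received IL-2 and IL-12 with an antibody to IL-4. All cultures held antigen-presenting cells, the peptide and anti-CD28, were polarised on day 0 and again on day 5, and were harvested on day 8. The 4 groups were Th17 KO, Th17 WT, Th1 KO and Th1 WT, with 3 libraries each. The labels do not say which libraries share an animal or a culture, and the spread behind each p-value is that among these libraries alone, part of which may be technical.

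The 26S proteasome degrades proteins tagged with ubiquitin. Its 20S core is a barrel of alpha and beta rings, with active sites of 3 kinds in beta subunits. Its 19S particle, a base of ATPases and a lid, recognises, unfolds and feeds in the substrate. Interferon gamma induces replacements of the catalytic subunits, Psmb8 (beta5i) for Psmb5, Psmb9 (beta1i) for Psmb6 and Psmb10 (beta2i) for Psmb7, and the PA28 activator made of Psme1 and Psme2. Lymphocytes hold such immunoproteasomes without added interferon, and their cleavage favours peptides that fit MHC class I.

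The stretches upstream of 4 members are shown because these genes carry the contrasts below: Psmb10 and Psme2 are the immune genes that differed by genotype in Th1 cells, and Psmb5 and Psmb6 are constitutive partners that differed by culture. They are RefSeq sequence of GRCm38.p6, on the strand of the gene, at chr8:105938445-105938604 (minus), chr14:55591114-55591273 (minus), chr14:54618023-54618182 (minus) and chr11:70525197-70525356 (plus). Capitals mark a match to TGACNNNGC, the core of the element bound by Nfe2l1 and Nfe2l2.
Psmb10: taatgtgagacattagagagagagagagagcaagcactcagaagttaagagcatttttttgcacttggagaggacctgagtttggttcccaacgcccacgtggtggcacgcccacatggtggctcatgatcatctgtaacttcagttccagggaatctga
Psme2: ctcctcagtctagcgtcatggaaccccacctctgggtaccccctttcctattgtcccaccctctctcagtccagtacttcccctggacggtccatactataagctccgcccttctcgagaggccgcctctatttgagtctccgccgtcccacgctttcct
Psmb5: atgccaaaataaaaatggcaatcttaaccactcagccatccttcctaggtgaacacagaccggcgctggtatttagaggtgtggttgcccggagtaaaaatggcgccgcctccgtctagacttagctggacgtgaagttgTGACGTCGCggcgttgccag
Psmb6: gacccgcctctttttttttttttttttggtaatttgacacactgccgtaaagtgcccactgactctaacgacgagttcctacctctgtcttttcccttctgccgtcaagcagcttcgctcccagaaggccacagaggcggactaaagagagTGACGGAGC

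Motifs were searched on both strands in the window from 250 bases before to 50 after each RefSeq start, which was at hand for 38 of the 45 members. Psma8, Psmb1, Psmb2, Psmb7, Psmc3, Psmd3 and Psmd7 had no entry. TGACNNNGC stood in 6 of the 38 windows, or 15.8%, against 14.0% of the 27025 genes of the table. Both constitutive catalytic windows held it, Psmb5 at -47 and Psmb6 at -9 from the start, and 0 of the 5 immune windows did. The interferon-stimulated response element, searched as GAAANNGAAA, was found in 4 of 38 windows (10.5%) against 3.99% of all genes. Among the immune genes it stood only in Psme1, as TTTCGCTTTC from 9 to 18 bases after the start on the strand of the gene. The gamma-activated site TTCNNNGAA was found in 2 of 38 windows (5.3%) against 9.55% of all genes, one of them Psmb8 with TTCCCAGAA from -97 to -89; this motif reads the same on both strands and was counted once. CCAAT stood in 15 of 38 windows (39.5%) against 41.1% of all genes, and in 6 of the 9 windows of structural 20S genes. No match of one motif overlapped a match of another, and the windows of Psmb10 and Psme2 held none of the 4. A match says only that these letters are present.

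Depth and markers bear on every comparison. Total counts were 9108203 to 12688637 in 9 libraries, but 1647232 to 2731909 in the libraries Th17 WT 2, Th17 WT 3 and Th17 KO 2, in which a single gene ID held 18.3% to 51.0% of the counts. The members together had 3698 to 10119 counts in these 3 shallow libraries and 48557 to 71595 in the others. Klrk1, which encodes NKG2D, had 1.60 to 3.35 CPM (counts scaled to a common library total, with TMM-normalised library sizes) in Th17 KO, against 130 to 141 CPM in Th17 WT, and 3.31 to 5.63 CPM in Th1 KO, against 128 to 161 CPM in Th1 WT. The 6 CD4 T cell markers summed to at least 8686 CPM in each library. Sums over B cell markers reached 4.79 CPM at most, those of dendritic cells, macrophages and monocytes 5.54 CPM and those of CD8 T cells 6.61 CPM. The 4 markers of NK and innate lymphoid cells summed to at most 1.05 CPM, and Ncr1 among them had no count. MHC class II genes summed to 85.1 to 92.3 CPM in Th17 KO and 62.3 to 81.9 CPM in Th17 WT. Their sums were 13.5 to 17.4 CPM in Th1 KO and 14.9 to 16.98 CPM in Th1 WT. Most of each sum came from Cd74 and H2-Ab1. The means of these genes were 52.6 and 32.1 CPM in Th17 KO and 35.4 and 31.6 CPM in Th17 WT. Group means of H2-Aa, H2-Eb1 and Ciita were at most 1.98 CPM. Th17 markers summed to 122 to 130 CPM in Th17 KO and 61.3 to 74.5 CPM in Th17 WT, against at most 3.15 CPM in Th1 libraries. Th1 markers summed to 658 to 719.5 CPM in Th17 KO and 888 to 1054 CPM in Th17 WT, so the Th17 cultures also held Th1 transcripts. In Th1 KO they summed to 1001 to 1226 CPM and in Th1 WT to 1167 to 1445 CPM. Of these 4 markers, Ifng alone was lower in Th17 than in Th1 cells, in both genotypes. Tbx21, Cxcr3 and Il12rb2 had higher means in Th17. The largest part of the Th17 sums was Il12rb2, with a mean of 545 CPM in Th17 KO and 661 CPM in Th17 WT. Its mean was 387 CPM in Th1 KO and 442 CPM in Th1 WT. Mitochondrial genes took 18.997% to 20.8% of the counts outside that gene ID in Th17 KO, 16.9% to 18.6% in Th17 WT, 14.6% to 15.1% in Th1 KO and 14.2% to 14.8% in Th1 WT. Since these are bulk samples, fewer cells of a type and less RNA per cell cannot be told apart.

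Among the immune subunits, Psmb8, Psme1 and Psme2 ranked between 1 and 10 of the 45 members in every group, Psmb9 between 14 and 20 and Psmb10 between 24 and 33, by level per kilobase. Psmb8 (ENSMUSG00000024338, chr17:34197721-34201454, plus strand) had the highest level of the 45 members per kilobase of its principal transcript in every group, with 174 CPM per kb in Th17 KO, 175 in Th17 WT, 256 in Th1 KO and 277 in Th1 WT. Psme1 (ENSMUSG00000022216, chr14:55578123-55581529, plus strand) had 148, 149, 140 and 157 CPM per kb in the same order of groups, and ranked 2 in Th17 KO and Th17 WT. Psme2 (ENSMUSG00000079197, chr14:55587441-55591113, minus strand) had 138, 132, 116 and 136 CPM per kb. The catalytic partner of Psmb8, Psmb5 (ENSMUSG00000022193, chr14:54614119-54618022, minus strand), had 45.0, 46.1, 69.0 and 63.4 CPM per kb. Exons of Psmb8 share 498 of 3381 bases with Gm20496 on the other strand, and those of Psmb5 share 109 of 899 with Mir686 on the same strand. With a library kit that does not mark strand, reads in the shared bases cannot be told apart. Counted per kilobase of the union of annotated exons, a choice added after the data were seen, Psmb8 was second to the structural subunit Psmb2 in Th17 KO, at 83.8 against 97.1 CPM per kb, and highest in the other groups.

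Each immune subunit was also set against its own partner within a library, where library size cancels. Psmb8 stood above Psmb5 per kilobase in all 12 libraries, with a ratio of 3.87 ± 0.21 in Th17 KO and 3.78 ± 0.20 in Th17 WT, 3.71 ± 0.14 in Th1 KO and 4.38 ± 0.09 in Th1 WT (SD, n = 3 each). Psmb9 (ENSMUSG00000096727, chr17:34181987-34187764, minus strand) stood below Psmb6 (ENSMUSG00000018286, chr11:70525367-70527858, plus strand), at a ratio of 0.699, 0.912, 0.683 and 0.747 in the same order. With the union of annotated exons as length, the ratio of Psmb8 to Psmb5 was 1.86, 1.82, 1.79 and 2.11 and the ratio of Psmb9 to Psmb6 was 0.605, 0.790, 0.592 and 0.647. Psmb10 (ENSMUSG00000031897, chr8:105935735-105938444, minus strand) to Psmb7 (ENSMUSG00000026750, chr2:38588036-38644087, minus strand) was 0.666, 0.606, 0.457 and 0.589 with the principal transcripts but 1.51, 1.37, 1.04 and 1.34 with the union, so these data do not order that pair.

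Members of restricted expression were at the bottom of the range. Psmb11, the beta5t subunit of thymic cortical epithelium, had 0 to 2.10 CPM and Psma8, the alpha subunit of the testis, 0 to 1.05 CPM over the 12 libraries, and neither was tested. Psmc3ip, which carries a proteasome symbol but encodes a cofactor of meiotic recombination, had 4.35 to 11.8 CPM. Psme2b, an intronless copy nearly identical to Psme2, had 6.43 to 13.7 CPM, and reads of the pair may have been shared in counting, which makes both counts uncertain.

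Culture was compared first within KO and within WT cells. Most of the proteasome was lower in Th17 than in Th1 cells of either genotype, with a summed level 0.827 times that of Th1 in KO and 0.798 times in WT. Of the 5 immune subunits, Psmb8 and Psmb9 were lower in both genotypes, and Psmb10 and Psme2 were higher in KO. The comparison in KO called 29 of the 43 tested members lower and 2 higher by edgeR's quasi-likelihood test with Benjamini-Hochberg adjustment over all 12189 genes tested, where 26.7% of all genes were called lower and 26.9% higher. The comparison in WT called 33 members lower and 0 higher, where 23.6% of all genes were called lower and 23.5% higher; for the 0 higher, DESeq2 and limma-voom also gave 0, and 35 members had an unadjusted p under 0.05 in either direction. With libraries thinned to equal depth, 18 members were lower in KO and 21 in WT, and without the 3 shallow libraries 31 were lower in KO and 29 in WT. The median log2 fold change of the tested members was -0.25 in KO and -0.30 in WT, against 0.00 in KO and -0.01 in WT over all genes tested. The sum over all 45 members was 3968 to 4210.2 CPM in Th17 KO, against 4895 to 4983 CPM in Th1 KO, and 3839.7 to 4114 CPM in Th17 WT, against 4941 to 5066 CPM in Th1 WT. The Th17 libraries also had the higher mitochondrial share and MHC class II sum given above, and their part in the result was not tested.

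Psmb8, the immune beta5 subunit, had 297, 251 and 302 CPM in Th17 KO, against 428, 427 and 394 CPM in Th1 KO. It had 319, 279.6 and 254 CPM in Th17 WT, against 447, 471 and 436 CPM in Th1 WT. The Th17 libraries lay below all Th1 libraries in both genotypes. Psmb8 fell by 0.53 ± 0.07 on the log2 scale in KO (SE, adjusted p = 1.22e-06) and by 0.64 ± 0.07 in WT (adjusted p = 1.13e-07).

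Psmb9, the immune beta1 subunit, had 97.7, 74.6 and 92.6 CPM in Th17 KO, against 122, 119 and 108 CPM in Th1 KO. It had 113, 104 and 94.5 CPM in Th17 WT, against 133, 125 and 121 CPM in Th1 WT. No Th17 library reached a Th1 library of its genotype. Psmb9 fell by 0.34 ± 0.08 on the log2 scale in KO (adjusted p = 0.000604) and by 0.25 ± 0.08 in WT (adjusted p = 0.0118). The call in WT was lost without Th1 WT 1 (adjusted p = 0.0509), without the 3 shallow libraries (adjusted p = 0.116) and with thinned libraries (adjusted p = 0.131). Its exons share 212 of 3660 bases with the antisense neighbour Tap1, and the library kit does not mark strand, so reads there cannot be told apart.

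Psmb10, the immune beta2 subunit, had 60.7, 77.7 and 63.8 CPM in Th17 KO, against 57.9, 57.1 and 53.3 CPM in Th1 KO. It had 64.3, 66.1 and 64.4 CPM in Th17 WT, against 71.7, 76.6 and 69.2 CPM in Th1 WT. In KO all Th17 libraries lay above the Th1 libraries, and in WT all lay below them. The log2 fold change was 0.19 ± 0.07 in KO (adjusted p = 0.0341) and -0.16 ± 0.08 in WT (adjusted p = 0.0972). The rise in KO was lost without Th17 KO 2, the shallow library (adjusted p = 0.0859), without Th17 KO 3 (adjusted p = 0.0928), without Th1 KO 2 (adjusted p = 0.0512) and without Th1 KO 3 (adjusted p = 0.139). It was also lost without the 3 shallow libraries (0.0895), by DESeq2 (0.0985) and with no filter on low counts (0.101).

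Neither PA28 subunit was called lower. Psme2 had 122, 131 and 144 CPM in Th17 KO, against 108, 108 and 118 CPM in Th1 KO. It had 136, 131 and 115 CPM in Th17 WT, against 129, 133 and 131 CPM in Th1 WT. Its groups did not overlap in KO and overlapped in WT, with a log2 fold change of 0.25 ± 0.07 in KO (adjusted p = 0.00406) and -0.01 ± 0.07 in WT (adjusted p = 0.935). The rise in KO was lost without Th17 KO 3 (adjusted p = 0.102) and with thinned libraries (adjusted p = 0.0541). Psme1 had 157, 166 and 169 CPM in Th17 KO, against 158, 159 and 149.5 CPM in Th1 KO, and 169, 154 and 174 CPM in Th17 WT, against 179, 175 and 169 CPM in Th1 WT. Those groups overlapped in both genotypes, and the log2 fold change was 0.08 ± 0.06 in KO (adjusted p = 0.314) and -0.08 ± 0.06 in WT (adjusted p = 0.342).

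**Figure D1:**
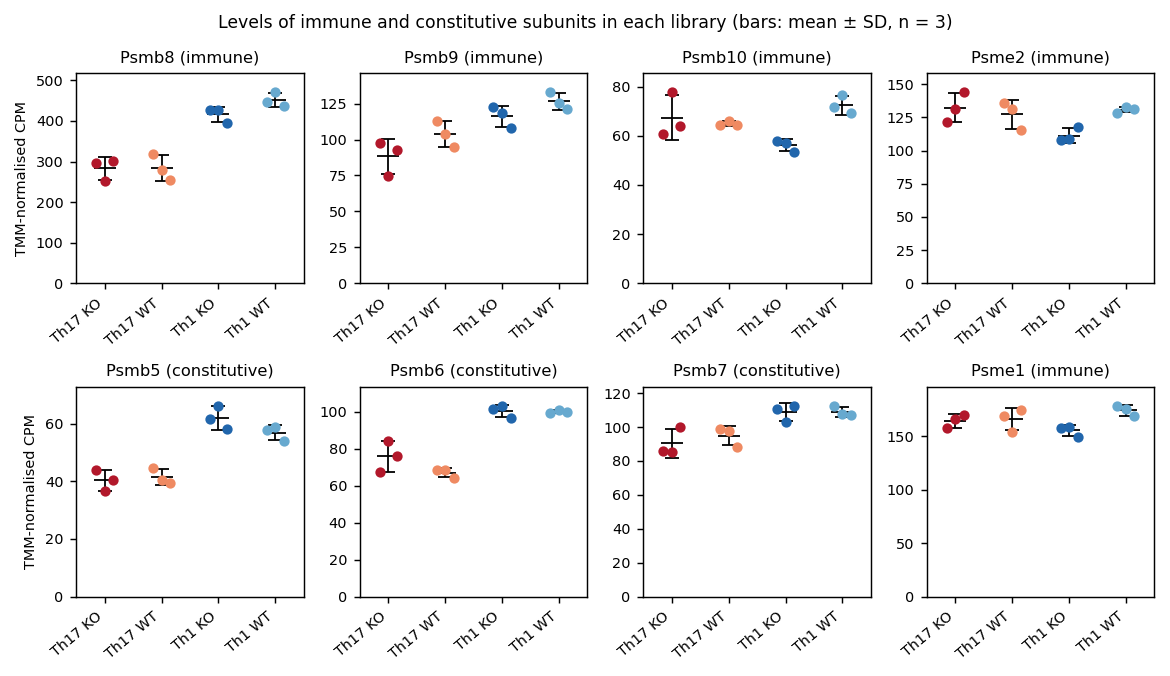
TMM-normalised CPM (linear axes from 0) of the 5 immune and the 3 constitutive catalytic subunits, 1 point per library, with black bars for the mean ± SD of 3 libraries. Psmb8 lay between 251 and 319 CPM in Th17 libraries and between 394 and 471 CPM in Th1 libraries, whereas Psme1 overlapped between the cultures.

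The constitutive catalytic subunits were lower in Th17 cells, with 3 of 3 called in KO and 2 of 3 in WT. Psmb5, the beta5 subunit with chymotrypsin-like activity, had 44.1, 36.8 and 40.5 CPM in Th17 KO, against 61.6, 66.3 and 58.1 CPM in Th1 KO. It had 44.7, 40.3 and 39.5 CPM in Th17 WT, against 57.8, 58.9 and 54.1 CPM in Th1 WT. The cultures did not overlap in either genotype, and Psmb5 fell by 0.57 ± 0.08 on the log2 scale in KO (adjusted p = 7.93e-07) and by 0.41 ± 0.08 in WT (adjusted p = 0.000267).

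Psmb6, the beta1 subunit with caspase-like activity, had 67.5, 84.0 and 76.1 CPM in Th17 KO, against 101, 103 and 96.8 CPM in Th1 KO. It had 68.5, 68.4 and 64.4 CPM in Th17 WT, against 99.1, 101 and 99.97 CPM in Th1 WT. It too was separate between cultures, and fell by 0.45 ± 0.07 in KO (adjusted p = 4.52e-06) and by 0.56 ± 0.07 in WT (adjusted p = 7.43e-07).

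Psmb7, the beta2 subunit with trypsin-like activity, had 85.9, 85.1 and 100.1 CPM in Th17 KO, against 111, 103 and 113 CPM in Th1 KO, and 99.1, 97.7 and 88.3 CPM in Th17 WT, against 112, 108 and 107 CPM in Th1 WT. The cultures were separate in both genotypes, but only the difference in KO passed the test, at -0.24 ± 0.07 (adjusted p = 0.00486), with -0.17 ± 0.07 in WT (adjusted p = 0.0569). The call in KO was lost without Th17 KO 1 (adjusted p = 0.085). Its exons share 405 of 3421 bases with Nek6 on the other strand.

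Across the rest of the core, 7 of the 11 structural 20S subunits were called lower in KO and 10 of 11 in WT. The log2 fold changes ran between -0.54 and -0.05 in KO and between -0.51 and -0.17 in WT. Psmb3, a beta ring subunit, fell by 0.54 ± 0.08 in KO (adjusted p = 1.76e-06), with 75.5, 56.7 and 81.5 CPM in Th17 KO, against 114, 108 and 107 CPM in Th1 KO. Psma7, an alpha ring subunit, fell by 0.51 ± 0.08 in WT (adjusted p = 3.37e-06), with 104, 113 and 81.0 CPM in Th17 WT, against 144, 147 and 147 CPM in Th1 WT. Psma6, also of the alpha ring, fell by 0.49 ± 0.08 in WT (adjusted p = 2.31e-05), with 79.6, 71.6 and 55.0 CPM in Th17 WT, against 102, 105 and 101 CPM in Th1 WT. In these libraries the shallow Th17 WT 3 was the lowest for both alpha subunits. The structural subunit that was not called in WT was Psmb1, at -0.17 on the log2 scale.

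Most subunits of the 19S particle were lower as well. Of its 6 ATPases, which form the ring that unfolds substrates, 5 were called lower in KO and 6 in WT, with a median log2 fold change of -0.33 in KO and -0.36 in WT. Of the 11 non-ATPase subunits, 9 were called lower in KO and 10 in WT, with medians of -0.34 in KO and -0.30 in WT. Psmd13, a lid subunit, fell by 0.58 ± 0.08 in KO (adjusted p = 3.8e-07), with 69.5, 53.6 and 69.7 CPM in Th17 KO, against 108, 96.4 and 99.3 CPM in Th1 KO; 342 of its 3377 exonic bases are shared with Sirt3 on the other strand. Psmd11, also of the lid, fell by 0.48 ± 0.08 in WT (adjusted p = 2.67e-05), with 45.2, 44.7 and 56.1 CPM in Th17 WT, against 64.6, 62.2 and 67.2 CPM in Th1 WT; with thinned libraries it was lost (0.0865). Psmd8, a lid subunit, was not called in either genotype, at -0.02 in KO and 0.02 in WT. Of the 3 assembly chaperones 1, Psmd5, was called lower in both genotypes, at -0.31 ± 0.08 in KO (adjusted p = 0.00292) and -0.45 ± 0.10 in WT (adjusted p = 0.000356).

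Of the alternative activators, Psme3 was called lower in both genotypes and Psme4 in neither. Psme3, the nuclear PA28gamma, had 87.2, 86.1 and 94.7 CPM in Th17 KO, against 138, 143 and 139.9 CPM in Th1 KO, and 96.1, 101 and 79.9 CPM in Th17 WT, against 126, 130.4 and 123 CPM in Th1 WT. It was separate between cultures in both genotypes and fell by 0.64 ± 0.07 in KO (adjusted p = 1.7e-08) and by 0.42 ± 0.07 in WT (adjusted p = 2.81e-05). Psme4, the PA200 activator, had 110.3 to 129 CPM in Th17 libraries and 115 to 128 CPM in Th1 libraries, with a log2 fold change of -0.05 in KO (adjusted p = 0.466) and -0.03 in WT (adjusted p = 0.686). Psmc3ip fell by 0.59 ± 0.16 in KO (adjusted p = 0.00252) and by 0.93 ± 0.19 in WT (adjusted p = 0.000199), at the low level given above; with thinned libraries the call in KO was lost (0.836).

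**Figure D2:**
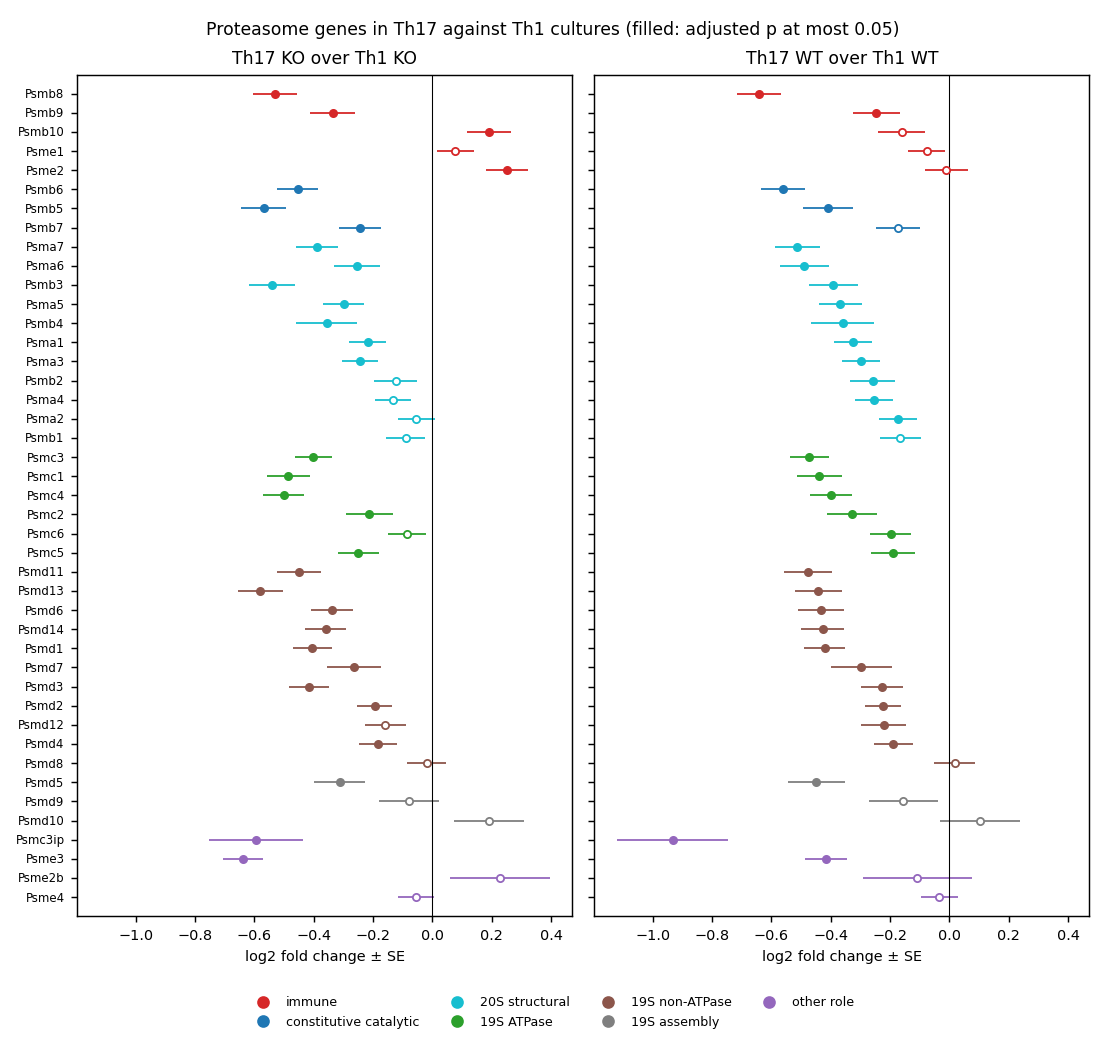
Log2 fold change ± SE of the 43 tested members in Th17 KO over Th1 KO (left) and in Th17 WT over Th1 WT (right), coloured by class and ordered within class by the value in WT; filled points had an adjusted p of at most 0.05. In KO, 29 members lay below 0 with a filled point and 2, Psmb10 and Psme2, above it, and in WT 33 lay below.

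Summed levels of the classes give the same comparison as amounts, and carry no test. The 5 immune subunits summed to 736 ± 36 CPM in Th17 KO, against 855 ± 28 CPM in Th1 KO, and to 746 ± 50 CPM in Th17 WT, against 955 ± 27 CPM in Th1 WT (SD, n = 3 each). The 3 constitutive catalytic subunits summed to 207 ± 9.6 CPM in Th17 KO, against 271 ± 3.3 CPM in Th1 KO, and to 204 ± 10.4 CPM in Th17 WT, against 266 ± 4.1 CPM in Th1 WT. The 17 subunits of the 19S particle summed to 1558 ± 31 CPM in Th17 KO, against 1932 ± 0.96 CPM in Th1 KO, and to 1539 ± 2.5 CPM in Th17 WT, against 1900 ± 42 CPM in Th1 WT. No Th17 library reached a Th1 library of its genotype in any of these sums. The SDs of 0.96 and 2.5 CPM come from 3 libraries each, 2 of them shallow in Th17 WT.

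Other genes of the pathway were counted from lists chosen with earlier results of these data known. Of 15 assembly, inhibitor and associated factors tested, 6 were called lower and 2 higher in KO and 7 lower and 0 higher in WT. Over all genes, 26.7% were called lower and 26.9% higher in KO, and 23.6% lower and 23.5% higher in WT. Adrm1, a ubiquitin receptor of the 19S particle, fell by 0.67 ± 0.09 in KO (adjusted p = 2.33e-06). It had 43.0, 69.3 and 43.7 CPM in Th17 KO, against 74.9, 75.6 and 68.6 CPM in Th1 KO. These groups overlapped, through the shallow library Th17 KO 2. Usp14, a deubiquitinase bound to the 19S particle, fell by 0.37 ± 0.08 in KO (adjusted p = 0.000211). Its fall in WT was 0.46 ± 0.08 (adjusted p = 6.42e-05). Zfand5, which stimulates the proteasome, fell by 0.43 ± 0.09 in WT (adjusted p = 0.000581). Psmg2, a chaperone of core assembly, fell by 0.36 ± 0.10 in KO (adjusted p = 0.00444, and 0.0893 with thinned libraries) and by 0.56 ± 0.13 in WT (adjusted p = 0.000679).

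Of the 6 genes for the transcription of proteasome genes, 4 were called lower and 1 higher in KO, and 2 lower and 1 higher in WT. Over all genes, 26.7% were called lower and 26.9% higher in KO, and 23.6% lower and 23.5% higher in WT. The counts in WT are near those shares. Ngly1, the glycanase that activates the factor Nfe2l1, had 75.3, 42.0 and 61.0 CPM in Th17 KO, against 112, 111 and 119 CPM in Th1 KO, and fell by 0.81 ± 0.10 in KO (adjusted p = 8.84e-07) and by 0.96 ± 0.10 in WT (adjusted p = 2.88e-07). Mafg, a small Maf partner of these factors, fell by 0.90 ± 0.10 in KO (adjusted p = 4.55e-08) and by 0.72 ± 0.11 in WT (adjusted p = 7.6e-06). Nfe2l2, the stress-induced factor of the family, rose by 0.78 ± 0.13 in KO (adjusted p = 1.5e-05) and by 0.70 ± 0.15 in WT (adjusted p = 0.000316, and 0.259 without Th17 WT 1). Of the 6 genes of ubiquitin supply, 2 were called higher and 0 lower in each genotype, and 2 of 6 higher is near the 26.9% of all genes called higher in KO and the 23.5% in WT. Uba1, the main ubiquitin-activating enzyme, rose by 0.31 ± 0.05 in KO (adjusted p = 4e-05) and by 0.50 ± 0.06 in WT (adjusted p = 4.89e-08). Rps27a, which encodes ubiquitin fused to a ribosomal protein, rose by 0.40 ± 0.08 in KO (adjusted p = 0.00023) and by 0.26 ± 0.08 in WT (adjusted p = 0.0109, and 0.152 without Th17 WT 1).

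Genotype was compared next within each culture, which asks how proteasome transcripts differ in cells without NKG2D. In Th17 cells no member was called, and in Th1 cells 2 immune subunits were lower in KO. In Th17, 0 of 43 were called higher and 0 lower by edgeR, where 1.81% of all genes were called higher and 4.02% lower; 6 members had an unadjusted p under 0.05, and DESeq2 and limma-voom also called 0. In Th1, 0 were called higher and 2 lower, where 1.69% of all genes were called higher and 2.92% lower; 5 members had an unadjusted p under 0.05, and the count called lower was 1 by DESeq2 and 3 by limma-voom. The mitochondrial share was higher in Th17 KO than in Th17 WT in every library, and its part in these values was not tested. The tested members' median log2 fold change was 0.03 in Th17 and 0.01 in Th1, against 0.00158 in Th17 and -0.00196 in Th1 over all genes.

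Psmb10 had the smallest adjusted p of the members by genotype. In Th1 it had 57.9, 57.1 and 53.3 CPM in KO, against 71.7, 76.6 and 69.2 CPM in WT, with no overlap, and it fell by 0.37 ± 0.07 on the log2 scale (adjusted p = 0.00126). The call held in all 20 alternatives run, with adjusted p between 4.81e-05 and 0.0264. In Th17 it had 60.7, 77.7 and 63.8 CPM in KO, against 64.3, 66.1 and 64.4 CPM in WT, which overlapped, with a log2 fold change of -0.02 ± 0.08 (adjusted p = 0.972). The difference between the 2 genotype differences was 0.35 ± 0.11 (adjusted p = 0.166), so the genotype difference was not shown to depend on the culture.

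Psme2 had 108, 108 and 118 CPM in Th1 KO, against 129, 133 and 131 CPM in Th1 WT. Those libraries were separate, and Psme2 fell by 0.23 ± 0.07 (adjusted p = 0.0413), with a difference between the cultures' genotype differences of 0.26 ± 0.10 (adjusted p = 0.344). The call stood close to the threshold: over the alternatives its adjusted p ran between 0.00506 and 0.512, and it was lost without Th1 WT 1 (0.091), Th1 KO 1 (0.187), Th1 WT 2 (0.168), Th1 KO 2 (0.197) or Th1 WT 3 (0.122), by DESeq2 (0.112) and with thinned libraries (0.512). In Th17 it had a log2 fold change of 0.03 ± 0.08 (adjusted p = 0.944).

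The other 3 immune subunits did not pass in either culture in the main fit. Psme1 was at -0.01 ± 0.07 in Th17 (adjusted p = 0.984) and -0.16 ± 0.06 in Th1 (adjusted p = 0.127). By limma-voom and with only the groups compared, Psme1 was called lower in Th1. Psmb8 was at -0.01 ± 0.08 in Th17 (adjusted p = 0.997) and -0.12 ± 0.07 in Th1 (adjusted p = 0.452). Psmb9 was at -0.21 ± 0.08 in Th17 (adjusted p = 0.17) and -0.12 ± 0.07 in Th1 (adjusted p = 0.428). All 5 immune values were below 0 in Th1, with a median of -0.16, and 4 of 5 in Th17, with a median of -0.01. The constitutive partners had 0 of 3 called in each culture, with medians of -0.04 in Th17 and 0.01 in Th1, and at an unadjusted p under 0.05, by DESeq2 and by limma-voom the count was 0 as well. The log2 fold changes of Psmb5, Psmb6 and Psmb7 were 0.12, 0.01 and -0.00 in Th1 and -0.04, 0.11 and -0.07 in Th17. Psme3, Psme4 and Psmc3ip were not called in either culture. Psme4 was lower in each KO library than in each WT library of its culture, at -0.14 in Th17 and -0.12 in Th1. Psme3 was at -0.07 in Th17, with overlap, and at 0.15 in Th1, with 138 to 143 CPM in KO, against 123 to 130.4 CPM in WT. In Th1 it was called higher with only the groups compared. Psmc3ip was at 0.35 in Th17 and 0.02 in Th1.

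Averaged over the cultures, 1 member was called higher in KO and 1 lower, where 3.19% of all genes were called higher and 6.64% lower. Psmc6, a 19S ATPase, was the higher one, at 0.15 ± 0.05 (adjusted p = 0.0434). It had 118, 109 and 121 CPM in Th17 KO, against 105, 100.1 and 97.6 CPM in Th17 WT, and 134, 121 and 119 CPM in Th1 KO, against 117, 118 and 116 CPM in Th1 WT. The KO libraries lay above the WT libraries in both cultures, but the call remained in 6 of the 19 alternatives, with adjusted p between 0.0248 and 0.156. Psmb10 was the lower one, at -0.19 ± 0.05 (adjusted p = 0.0212), called in 14 of 19 alternatives with adjusted p between 0.00786 and 0.172. The call of Psmb10 was lost without Th1 WT 2 (0.0716), Th1 KO 3 (0.0518) or Th17 KO 1 (0.102). For Psmc6 it was lost without any one of Th1 WT 1 (0.0798), Th1 KO 1 (0.149), Th1 WT 2 (0.0752), Th1 KO 2 (0.0592), Th1 WT 3 (0.0867), Th17 KO 1 (0.077), Th17 WT 2 (0.0917), Th17 WT 3 (0.061) or Th17 KO 3 (0.117). Both calls were also lost by DESeq2 (0.082 for Psmb10, 0.124 for Psmc6) and with thinned libraries (0.172 and 0.156), and that of Psmc6 with no filter (0.069) and without the 3 shallow libraries (0.0935).

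The test of whether the genotype difference depended on culture called 0 of 43 members higher and 0 lower, where 0.115% of all genes were called higher and 0.476% lower. At an unadjusted p under 0.05 there were 4, and DESeq2 and limma-voom called 0. All 6 comparisons draw on the same 12 libraries, so their values are not independent of each other.

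Ratios of the immune to the constitutive partner within a library put the same data on a scale free of library size, and carry no test. The log2 ratio of Psmb8 to Psmb5 counts was 2.75, 2.77 and 2.90 in Th17 KO, against 2.84, 2.79 and 2.69 in Th17 WT, and 2.80, 2.69 and 2.76 in Th1 KO, against 2.95, 2.998 and 3.01 in Th1 WT. Th1 WT lay above each other group, and the other 3 groups overlapped. The log2 ratio of Psmb10 to Psmb7 was -0.50, -0.13 and -0.65 in Th17 KO, against -0.62, -0.56 and -0.46 in Th17 WT, and -0.94, -0.85 and -1.08 in Th1 KO, against -0.65, -0.49 and -0.63 in Th1 WT. Th1 KO lay below the other groups without overlap, and the high value of Th17 KO came from the shallow library Th17 KO 2. The log2 ratio of Psmb9 to Psmb6 was 0.53, -0.17 and 0.28 in Th17 KO, against 0.72, 0.60 and 0.55 in Th17 WT, and 0.27, 0.20 and 0.16 in Th1 KO, against 0.42, 0.31 and 0.28 in Th1 WT. Again Th17 KO 2 stood apart from its group. KO lay below WT without overlap in both cultures, by a narrow margin. The highest KO and lowest WT values were 0.534 and 0.554 in Th17 and 0.272 and 0.279 in Th1. Th17 WT lay above each other group.

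**Figure D3:**
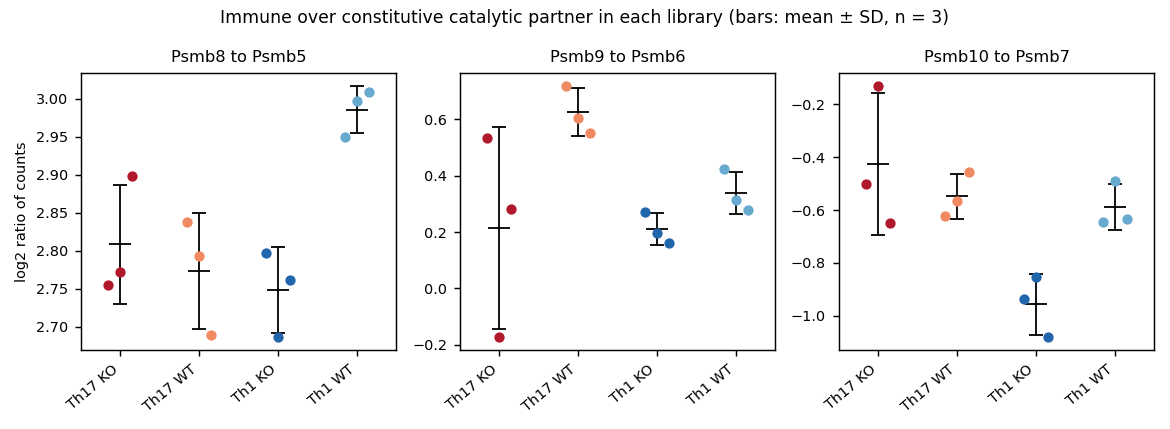
Log2 ratio of the counts of each immune catalytic subunit to its constitutive partner, 1 point per library and black bars for the mean ± SD of 3 libraries; the axes do not start at 0. Psmb8 to Psmb5 was highest in Th1 WT, at 2.95 to 3.01, and Psmb10 to Psmb7 was lowest in Th1 KO, at -1.08 to -0.85.

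Factors upstream of the immune subunits were described from the same lists. Of 9 interferon factors, 0 were called higher and 3 lower in Th17 KO against Th17 WT, where 1.81% of all genes were called higher and 4.02% lower. In Th1 KO against Th1 WT 1 was called higher and 2 lower, where the shares were 1.69% and 2.92%. Their median log2 fold change was -0.38 in Th17 and -0.21 in Th1. Nlrc5, the transactivator of MHC class I genes, had 244, 228 and 236 CPM in Th17 KO, against 310.5, 314 and 301 CPM in Th17 WT, and 312, 319 and 325 CPM in Th1 KO, against 386, 390.4 and 392 CPM in Th1 WT. KO and WT were separate in both cultures, and Nlrc5 fell by 0.38 ± 0.06 in Th17 (adjusted p = 0.000116) and by 0.29 ± 0.05 in Th1 (adjusted p = 0.00127). Irf9, the DNA-binding partner in the complex that type I interferon activates, had 70.2, 69.9 and 70.4 CPM in Th1 KO, against 80.5, 82.8 and 79.4 CPM in Th1 WT. Those libraries were separate, and Irf9 fell by 0.20 ± 0.06 in Th1 (adjusted p = 0.0408), a call that was lost without Th1 WT 1 (0.0857), Th1 KO 1 (0.119), Th1 WT 2 (0.17), Th1 KO 2 (0.15), Th1 WT 3 (0.0669) or Th1 KO 3 (0.104), by DESeq2 (0.148), with no filter (0.107) and with thinned libraries (0.564). Ifngr1, the ligand-binding chain of the interferon gamma receptor, had 233, 203 and 193 CPM in Th17 KO, against 338, 322 and 304 CPM in Th17 WT, and fell by 0.62 ± 0.07 there (adjusted p = 3.77e-06). Ifng itself, 59.3, 38.9 and 66.9 CPM in Th17 KO, against 174, 178 and 233 CPM in Th17 WT, fell by 1.66 ± 0.24 (adjusted p = 0.00566, and 0.116 without the 3 shallow libraries). Ifngr2, the second receptor chain, was called higher in Th1 KO at 0.662 to 1.45 CPM, against 0 to 0.363 CPM in Th1 WT, near the 3 counts per library that mark the floor; the call was lost without Th1 KO 3 (adjusted p = 0.0613) and with thinned libraries (0.318).

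By culture, Ifng, Ifngr1 and Nlrc5 were lower and Ifngr2 was higher in Th17 cells. Ifng had a mean of 55.0 CPM in Th17 KO, against 647 CPM in Th1 KO, and 195 CPM in Th17 WT, against 748 CPM in Th1 WT. Its log2 fold change, -3.43 in KO and -1.99 in WT, was the lowest of the list in each genotype. Ifngr1 fell by 1.61 ± 0.07 in KO (adjusted p = 8.46e-16) and by 1.14 ± 0.07 in WT (adjusted p = 1.15e-12). Nlrc5 fell by 0.43 ± 0.06 in KO (adjusted p = 5.08e-07) and by 0.33 ± 0.06 in WT (adjusted p = 2.46e-05). Ifngr2 had 10.04, 7.35 and 9.83 CPM in Th17 KO, against 0.662, 0.834 and 1.45 CPM in Th1 KO, and 6.02, 6.72 and 4.15 CPM in Th17 WT, against 0.363, 0.157 and 0 CPM in Th1 WT. The cultures were separate in both genotypes, and Ifngr2 rose by 3.28 ± 0.28 in KO (adjusted p = 3.53e-10) and by 5.03 ± 0.44 in WT (adjusted p = 7.36e-10), a size that depends on the few counts of the Th1 libraries. Over the 9 interferon factors, 3 were called higher and 3 lower in KO, where 26.9% of all genes were called higher and 26.7% lower, and 2 higher and 4 lower in WT, where the shares were 23.5% and 23.6%. Counts of 2 or 3 among 9 genes are near those shares. The 4 of 9 lower in WT are a larger share than 23.6%, and this was not tested.

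The genes of MHC class I antigen processing take up the peptides that immunoproteasomes make. Of 11 such genes, 0 were called higher and 2 lower in Th17 KO against Th17 WT, where 1.81% of all genes were called higher and 4.02% lower. In Th1 KO against Th1 WT 0 were called higher and 3 lower, where the shares were 1.69% and 2.92%. Tap1, a peptide transporter that lies head to head with Psmb9, had 258, 229 and 251 CPM in Th17 KO, against 335, 300.2 and 267 CPM in Th17 WT, and 330.1, 336 and 311 CPM in Th1 KO, against 406, 404 and 386 CPM in Th1 WT. It was separate in both cultures and fell by 0.30 ± 0.07 in Th17 (adjusted p = 0.012) and by 0.29 ± 0.07 in Th1 (adjusted p = 0.00872). The call in Th17 was lost without Th17 WT 1 (0.134) and with only the groups compared in the fit (0.077), and that in Th1 without Th1 WT 2 (0.057) or Th1 KO 3 (0.0606). B2m, the light chain of MHC class I, fell by 0.29 ± 0.06 in Th1 (adjusted p = 0.00616), Tapbp, which edits the bound peptide, by 0.24 ± 0.06 in Th1 (adjusted p = 0.018), and H2-D1, a class I heavy chain, by 0.27 ± 0.07 in Th17 (adjusted p = 0.0169). The call of B2m was lost without Th1 WT 2 (0.057). That of Tapbp was lost without Th1 KO 1 (0.0566), Th1 WT 2 (0.157), Th1 KO 2 (0.0546) or Th1 KO 3 (0.107), and that of H2-D1 without Th17 WT 1 (0.0933), Th17 KO 1 (0.0613) or Th17 KO 3 (0.0787). Tapbp was also lost with thinned libraries (0.0944) and H2-D1 with only the groups compared (0.0691). By culture, 8 of the 11 were called lower and 1 higher in KO, where 26.7% of all genes were called lower and 26.9% higher. In WT 7 were called lower and 1 higher, where the shares were 23.6% and 23.5%. H2-D1 fell by 0.51 ± 0.07 in KO (adjusted p = 3.89e-07) and by 0.44 ± 0.07 in WT (adjusted p = 4.92e-06). Tap2, the second transporter chain, fell by 0.41 ± 0.07 in KO (adjusted p = 9.35e-06), and Canx, an ER chaperone, by 0.34 ± 0.06 in WT (adjusted p = 5.82e-05).

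By genotype, 1.81% of all genes were called higher and 4.02% lower in Th17, and 1.69% and 2.92% in Th1. The chaperone Psmg2 was the single gene of the 15 assembly and associated factors called by genotype. It had 24.7, 17.9 and 22.4 CPM in Th17 KO, against 16.0, 13.1 and 16.6 CPM in Th17 WT, and 32.8, 29.7 and 26.9 CPM in Th1 KO, against 21.1, 23.9 and 23.1 CPM in Th1 WT. KO and WT were separate in both cultures, and Psmg2 rose by 0.59 ± 0.13 in Th17 (adjusted p = 0.00778) and by 0.39 ± 0.09 in Th1 (adjusted p = 0.0135). The call in Th17 was lost without Th17 KO 1 (0.0654) or the 3 shallow libraries (0.0526), and that in Th1 without Th1 WT 1 (0.0819), Th1 KO 1 (0.102) or Th1 KO 2 (0.0602) and by DESeq2 (0.0903). With thinned libraries both were lost (0.248 in Th17, 0.465 in Th1). Of the 6 transcription genes and the 6 ubiquitin genes, 0 were called by genotype in either culture by edgeR; at an unadjusted p under 0.05 the counts were 0 for transcription in each culture, and 1 for ubiquitin in each. DESeq2 and limma-voom each called 1 ubiquitin gene in Th1 and 0 otherwise.

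**Figure D4:**
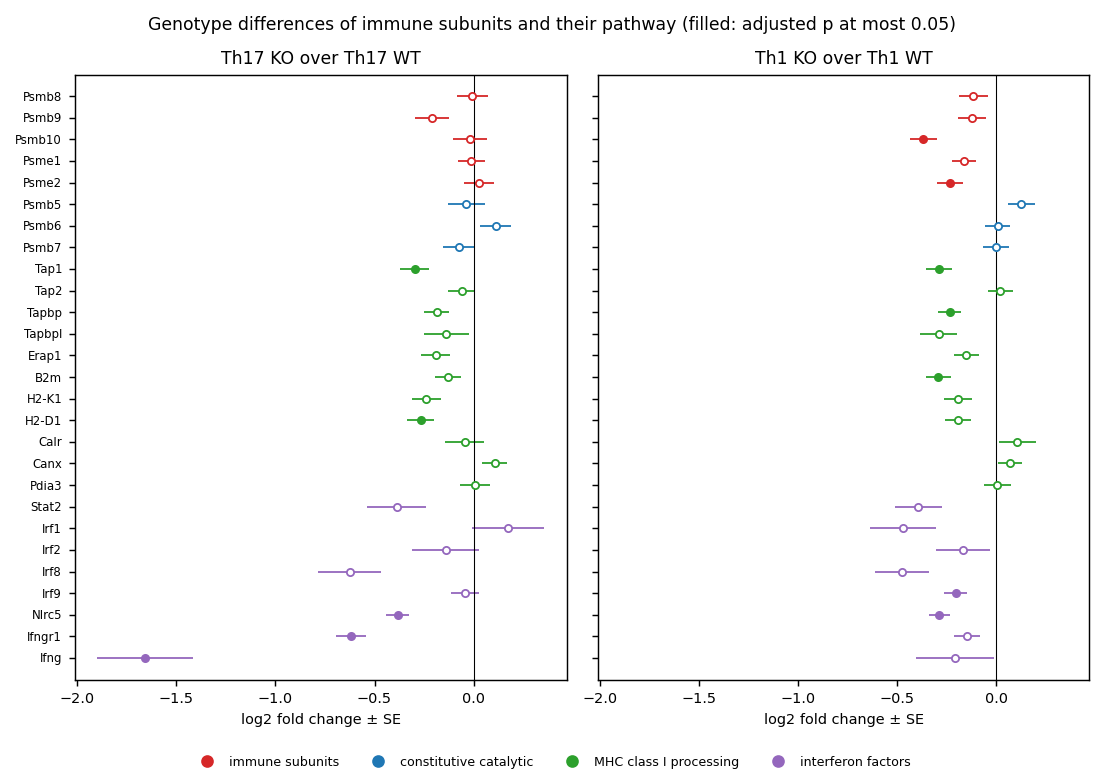
Log2 fold change ± SE of KO over WT in Th17 (left) and in Th1 (right) for the immune and constitutive catalytic subunits, 11 genes of MHC class I antigen processing and 8 interferon factors; filled points had an adjusted p of at most 0.05. Psmb10 and Psme2 are filled in Th1 only, Nlrc5 and Tap1 in both cultures; Ifngr2 is not drawn.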

How the data were processed

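Poly-A RNA of 12 samples was sequenced from full-length cDNA made with a kit that does not mark strand, per the labels' protocols. Per the submitters' processing notes, the tools were featureCounts, TopHat2 and Bowtie2 on mm10 (GRCm38). Their versions, the strand setting, the handling of multi-mapping reads and the annotation release are not given in the sources used here. Each deposited table holds whole-number counts per Ensembl gene ID without normalisation, which summed to 1647232 to 12688637 per sample.

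Gene names, exon overlaps and lengths come from GENCODE release M21 of GRCm38, and promoters from RefSeq. Counts were TMM-normalised in edgeR 4.0.16 (R 4.3.3), filtered with filterByExpr, and fitted by glmQLFit with robust dispersion on all 12 samples. The groups were compared with glmQLFTest and Benjamini-Hochberg adjustment over 12189 genes, with 0.05 as the threshold. SEs are the absolute log2 fold change over the root of F. With 3 libraries a group the smallest exact permutation p is 0.1, so p-values rest on the fit across genes. Scripts were tested on simulated data. Ratios and sums have no test. CPM values use TMM-normalised library sizes.

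Alternatives were RLE size factors, DESeq2 1.42.0, limma-voom with sample weights (limma 3.58.1, called limma-voom here), no filter and libraries thinned to 1647232 counts. Others were only the groups compared, no shallow libraries, no dominant gene ID, 1 count added in ratios, and each library left out in turn. Named were the 8 contrasted subunits, up to 4 further members per comparison of largest absolute fold change past the threshold, the members of restricted or other role, and up to 3 genes per list and comparison of smallest p past it. Psmb1, Psmb2, Psmd5, Psmd8 and Psme2b were named after their values were seen, as were Ifng by culture and the single Th1 markers. The members and lists were chosen with earlier results of these data known. Paaf1 of the lists was not analysed here. A further gene of the interferon list is not reported here. Floors of counts cover counting error only, whereas the SDs and SEs also hold the spread among libraries.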

Additional observations from a re-analysis of the deposited data

Results flagged for a closer look

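Ifngr1, of the list of interferon factors, had a genotype difference that differed between Th17 and Th1 cells in the test of that difference itself. The genotype difference in Th17 minus that in Th1 was -0.47 ± 0.10 on the log2 scale (edgeR, adjusted p = 0.022; 0.000479 to 0.139 over 19 alternatives, called in 12), with a value of -0.62 in Th17. It was lost without Th17 KO 3 (adjusted p = 0.103), Th17 WT 1 (0.058), Th1 KO 1 (0.0547), Th1 KO 2 (0.0793) or Th1 WT 3 (0.0694), without the 3 shallow libraries (0.0562), and with thinned libraries (0.139). The 43 tested proteasome genes gave 0 calls in the same test. Groups of 3 were not searched for single libraries that stand apart.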

How the results depend on the processing

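Of the values tried under other settings, none changed direction after a call. In Th1 KO against Th1 WT, the 0 members higher became 1 with only the groups compared. The 2 lower became 1 by DESeq2 or thinning and 1 to 2 without single libraries. Psme1 was added to those lower by limma-voom and with only the groups compared. In Th17 KO against Th17 WT, the 0 members higher became 1 with no filter and 0 to 1 without single libraries. Averaged over cultures, the 1 member higher became 0 by DESeq2, no filter, thinning or without the 3 shallow libraries, and 0 to 2 without single libraries. The 1 lower became 0 by DESeq2 or thinning, 2 by RLE size factors or without the shallow libraries, and 0 to 2 without single libraries. The member added by RLE size factors and without the shallow libraries was Psmb9. In Th17 against Th1, thinning left 21 of 33 members lower in WT and 18 of 29 in KO. The 2 higher in KO became 1 by DESeq2, no filter, thinning or without the shallow libraries, and 0 to 2 without single libraries.

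Thinning moved the log2 ratio of Psmb9 to Psmb6 in Th1 KO minus Th1 WT to -0.012, against -0.13, and in Th17 WT minus Th1 WT to 0.47, against 0.29. It moved Psmb10 to Psmb7 in Th1 KO minus Th1 WT to -0.48, against -0.37. It moved the summed constitutive level in Th1 KO minus Th1 WT to -0.011, against 0.03, the other 20S subunits in Th17 KO minus Th1 KO to -0.20, against -0.24, and the 19S particle to 0.063, against 0.02, in Th17 KO minus Th17 WT and to -0.26, against -0.31, in Th17 KO minus Th1 KO. Without the shallow libraries, Th17 WT minus Th1 WT was -0.15, against -0.21, for Psmb8 to Psmb5, 0.38, against 0.29, for Psmb9 to Psmb6, -0.25, against -0.36, for the immune sum, -0.32, against -0.39, for the constitutive sum and -0.26, against -0.34, for the other 20S subunits. Without single libraries the 19S difference in WT lay between -0.33 and -0.30. The cause of these changes was not tested.

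Over all genes, the 562 calls in Th1 KO against Th1 WT became 317 by DESeq2, 1074 by limma-voom, 156 thinned, 922 with only the groups compared, and 343, 260.0 and 293 without Th1 KO 1, Th1 WT 2 and Th1 KO 2. The 711 in Th17 KO against Th17 WT became 463 by limma-voom, 286 thinned, 356 with only the groups compared, 319 without the shallow libraries, and 453, 411 and 458 without Th17 KO 1, Th17 WT 2 and Th17 KO 3. Thinning left 440 of 1198 averaged calls, 3310 of 5738 by culture in WT, 3526 of 6534 by culture in KO and 18 of 72 for the dependence on culture. The last was 207 with no filter and 38 without Th17 KO 3. The fit with only the groups compared has no version where all groups are compared. No paired analysis was possible because the labels carry no replicate numbers: each library has a code of its own, and no label says that libraries with neighbouring codes share a culture or an animal. Depth limits the Th17 groups, where 3 of 6 libraries had at most 2731909 counts; there 3 counts stand for 1.098 to 1.82 CPM, against 0.236 to 0.329 CPM in the deeper libraries.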
